A study of Arabidopsis thaliana with 9 samples.

Results

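The chloroplast-encoded transcripts are the rows of the deposited expression tables whose locus ID starts with ATCG, the prefix of the Arabidopsis thaliana chloroplast genome. They numbered 111 of the 25760 genes listed. All 111 were followed in RNA-seq of inflorescence meristems from 3 genotypes with 3 libraries each: the wild type col-0; csld5, a mutant of CSLD5, which belongs to the cellulose synthase-like D family; and pATML1::GFP+CSLD5-csld5, called complemented here, in which the csld5 mutant carries a transgene with GFP and CSLD5 behind the promoter of ATML1, an epidermal gene. The sources used here do not give the csld5 allele, the number of transgenic lines, or the age and number of plants. No label states whether the replicate libraries derive from different plants, so p-values measure only the spread between libraries, which may be technical.

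The chloroplast genome encodes part of the photosystems, the cytochrome b6f complex, the ATP synthase, the NDH complex and the large subunit of RuBisCO, together with ribosomal RNAs, transfer RNAs, part of the plastid ribosome and the core of a plastid RNA polymerase. The other subunits of these complexes are encoded in the nucleus. Chloroplast genes are read by 2 kinds of RNA polymerase: the plastid-encoded enzyme, whose core subunits include the products of rpoB and rpoC2 and which is directed by sigma factors made in the nucleus, and a nuclear-encoded enzyme of the phage type. Most plastid transcripts carry no long poly(A) tail, so how much of them a library holds depends on the RNA selection, which is not given in the sources used here. Cells of a meristem hold small, little differentiated plastids, and chloroplasts develop as organs leave the meristem.

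Total counts per library ranged from 35543318 to 45679471. The targeted gene moved as the genotype labels say: CSLD5 had a mean of 57.1 ± 2.74 TPM (length-scaled transcript abundance, SD, n = 3) in col-0, 11.3 ± 0.391 in csld5 and 399 ± 34.3 in complemented libraries. Of 7 meristem markers, the stem cell peptide gene CLV3 had 10 reads or fewer in each genotype, and in csld5 it had none; the list summed to between 202 and 209 TPM in col-0, between 195 and 197 in complemented libraries and between 173 and 179 in csld5.

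Chloroplast transcripts were scarce everywhere and scarcest in csld5. They had 11371, 11633 and 7475 reads in the col-0 libraries, 3090, 2874 and 2826 reads in csld5, and 11592, 9265 and 15010 reads in complemented libraries. As a share of all counted reads this was 0.0248% ± 0.0033 (SD, n = 3) in col-0, 0.00768% ± 0.00042 in csld5 and 0.0282% ± 0.0042 in complemented libraries. Each csld5 library lay below each of the other 6, and the col-0 and complemented libraries overlapped. The csld5 mean was 31.0% of the col-0 mean, and the complemented mean was 113.5% of it. In these bulk samples, fewer cells with many chloroplast transcripts and less chloroplast RNA per cell cannot be told apart. Nor can either be told apart from a difference in RNA selection between the libraries, since the selection is not given.

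**Figure D1:**
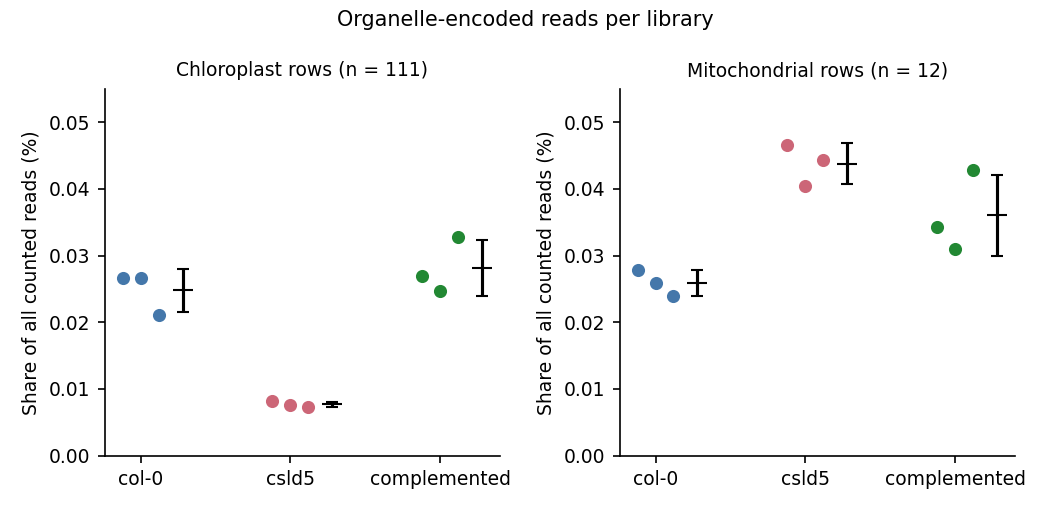
Share of all counted reads, in percent, that fell on the 111 chloroplast rows (left) and the 12 mitochondrial rows (right). Points are libraries, and the black marks give the mean and SD of 3 libraries; the 3 csld5 libraries are the lowest for chloroplast rows and lie above all col-0 libraries for mitochondrial rows.

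The read share of mitochondrial transcripts, the other organelle-encoded set, did not follow the chloroplast share. Their 12 rows took 0.0259% ± 0.0020 (SD, n = 3) of reads in col-0, 0.0438% ± 0.0031 in csld5 and 0.0360% ± 0.0061 in complemented libraries. Most of those reads fell on ATMG00020 and ATMG01390, which were higher in csld5 than in col-0 by 0.39 ± 0.12 (log2, SE) and 1.27 ± 0.10, with edgeR adjusted p of 0.017 and 1.5e-06. Of the 9 mitochondrial rows tested, these 2 rose and 1 fell, ATMG01380 by -1.40 ± 0.20 (edgeR adjusted p = 0.00011), and the median over the 9 was -0.26. Counts of this size are near the shares over all genes tested, of which 21.1% were higher and 20.4% lower. In complemented against csld5 libraries, 4 of the 9 rows were higher and 1 lower by edgeR, beside 19.8% and 21.1% of all genes. The median there was 1.02, with 8 values above 0 and 1 below. ATMG01380 changed by 1.53 ± 0.20 and ATMG01390 by -0.73 ± 0.10 (log2, SE). Single mitochondrial rows thus went both with and against the chloroplast rows.

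Abundance differed widely among the chloroplast rows. On the deposited TPM scale the mean over col-0 libraries ran from 0.00753 to 225 with a median of 3.36; 22 rows reached 10 TPM and 24 stayed below 1 TPM. In csld5 the median row was at 0.791 TPM, 3 rows reached 10 TPM and 62 stayed below 1 TPM. Complemented libraries had a median of 3.83 TPM, 24 rows at 10 TPM or more and 24 below 1 TPM. TPM is not a safe ranking of the shortest rows: the highest one, ATCG00450, had 54, 41 and 38 reads in col-0 and a ratio of counts to TPM that implies a length of 9 bases. In reads, the 10 highest rows of each library held 57.0% to 63.7% of its chloroplast reads. The row with most reads was ATCG00950 in all 3 col-0 libraries, ATCG00190 in all 3 csld5 libraries, and ATCG01020 or ATCG00950 in the complemented libraries.

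The reference annotation lists 129 plastid genes under other tags and pairs none of the 111 IDs with a symbol, so the rows could not be sorted into photosystem, ATP synthase, NDH, ribosomal, polymerase, tRNA and rRNA classes. No entry there carries these IDs, but notes in that annotation mention 6 of them with a description. Long rows can be compared with the reference by the length that their ratio of counts to TPM implies; on 1302 nuclear single-exon genes of at least 1500 bases and 100 reads this length was within 5% of the annotated length for 86.7%. The implied length was not checked for shorter genes and is used to set no shorter row beside a reference gene. In the files 7 chloroplast rows had an implied length over 2500 bases, and 7 RefSeq plastid genes are longer than that. The nearest reference gene by length is given for these rows as a description of size, which is not an annotation. RefSeq's 2 genes for the 23S ribosomal RNA are identical over their 2810 bases, so reads from them cannot be assigned to one copy by sequence, and how the authors' counting treated such reads, or reads from overlapping and antisense genes, is not given in the sources used here.

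The first comparison asks how the mutant differs from the wild type. Of the 82 chloroplast rows with enough reads to be tested, 68 were lower in csld5 than in col-0 and 0 were higher at an edgeR adjusted p below 0.05; 20.4% of all genes tested were lower and 21.1% higher. At an unadjusted p below 0.05, edgeR had 0 chloroplast rows higher, and DESeq2 and limma also called 0 higher. The log2 fold changes of the 81 rows with a read in csld5 ran from -6.38 to 0.32. The median over all 82 was -1.93, also with the row that had no csld5 read set at its bound, beside -0.02 over all genes tested. The libraries of csld5 lay wholly below those of col-0 for 67 rows and wholly above them for 1, against 25.8% and 25.2% of all genes, and the other 14 overlapped. By size, 19 rows lay below -3, 21 between -3 and -2, 29 between -2 and -1, 10 between -1 and 0, and 3 above 0.

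The fold changes were therefore far from uniform, and the rows that passed the filter on low counts only through the higher genotypes are among them. For the 30 rows that also reached the filter's cutoff of 0.26 CPM (counts scaled to a fixed library size) in all 3 csld5 libraries, 24 were lower and 0 higher, with a median of -1.47. By mean reads over the 9 libraries, 19 of 27 rows under 20 reads were lower with a median of -2.34, 33 of 35 rows with 20 to 100 reads with a median of -1.87, and 16 of 20 rows with 100 reads or more with a median of -1.63. Across the 82 rows, which share the same libraries, Spearman's rho of the fold change with reads was 0.22.

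**Figure D2:**
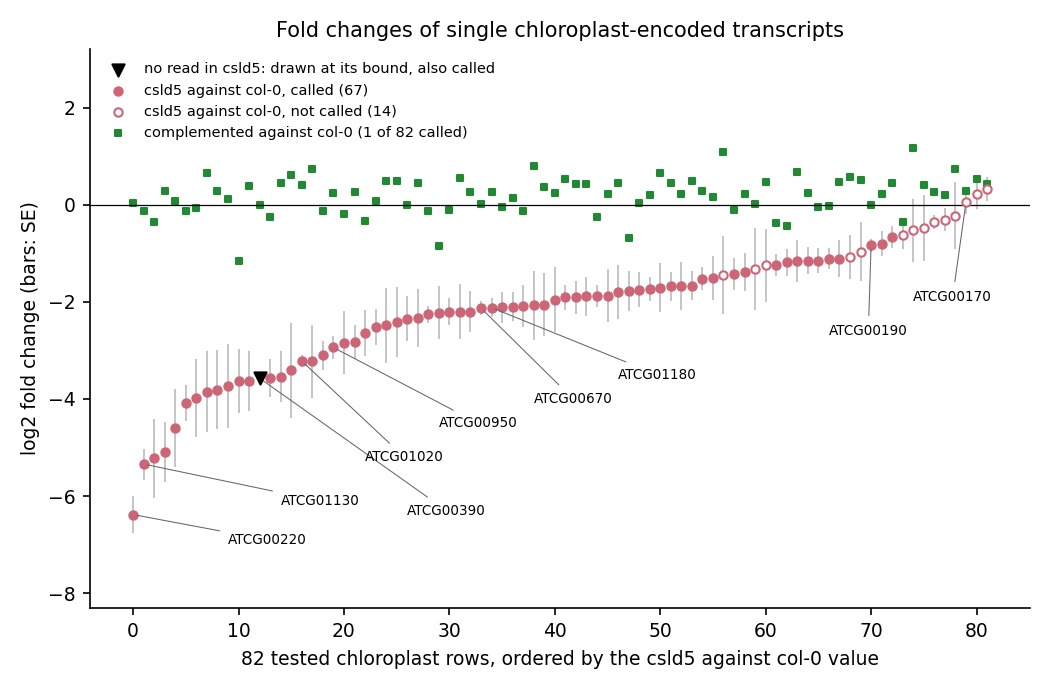
Log2 fold change of each of the 82 tested chloroplast rows in csld5 against col-0 (red, with SE; filled where called by edgeR) and in complemented against col-0 (green squares), ordered by the first value. The black triangle is ATCG00390, which had no read in csld5 and is drawn at its bound of 11.9-fold with no SE. The red points run from -6.38 to 0.32, with 68 of 82 rows called lower, while the green points lie between -1.16 and 1.17 with 1 called.

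A reference note describes ATCG00670 as the plastid-encoded ClpP, the proteolytic subunit of the Clp protease. This row had the most reads of the 6 rows with such a note. It had 302, 270 and 221 reads in col-0, 57, 54 and 49 in csld5, and 268, 271 and 297 in complemented libraries. The csld5 libraries stood far below the rest with little spread among themselves. The fold change in csld5 was -2.13 ± 0.15 (log2, SE; edgeR adjusted p = 7.2e-07), from 7.48 ± 0.63 to 1.46 ± 0.20 TPM (SD, n = 3).

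CemA is a protein of the chloroplast envelope, and a reference note describes ATCG00530 as a CemA-like protein related to proton extrusion. It had 110, 83 and 55 reads in col-0, 6, 26 and 27 in csld5, and 117, 77 and 155 in complemented libraries. The groups did not overlap, but csld5 replicate 1 was well under the other csld5 libraries. ATCG00530 fell by 1.89 ± 0.40 on the log2 scale in csld5 (edgeR adjusted p = 0.002).

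ATCG00660, ATCG00750 and ATCG01310 encode proteins of the plastid ribosome, the organelle's own translation machinery. ATCG00660, ribosomal protein L20, had 18, 22 and 23 reads in col-0, 6, 3 and 8 in csld5, and 26, 25 and 55 in complemented libraries. ATCG00750, ribosomal protein S11, had 22, 28 and 27 reads in col-0, 11, 9 and 6 in csld5, and 33, 25 and 38 in complemented libraries. ATCG01310, ribosomal protein L2, had 8, 12 and 7 reads in col-0, 3, 0 and 1 in csld5, and 16, 8 and 16 in complemented libraries. For each of these rows every csld5 library was below every col-0 library, though on few reads. The rows could not be paired with symbols, so whether another row holds a copy of the same gene was not checked. The falls in csld5 were -1.71 ± 0.50 for ATCG00660, -1.39 ± 0.39 for ATCG00750 and -2.48 ± 0.77 for ATCG01310 (log2, SE), with edgeR adjusted p of 0.014, 0.012 and 0.02.

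The NDH complex carries cyclic electron flow around photosystem I. A reference note calls ATCG00430 photosystem II reaction center protein G, an older name for a product now counted as an NDH subunit. It had 16, 38 and 29 reads in col-0, 10, 8 and 2 in csld5, and 46, 19 and 37 in complemented libraries. ATCG00430 was lower in csld5 by -1.87 ± 0.55 (log2, SE; edgeR adjusted p = 0.015). Calls for these low rows rest on single libraries: adjusted p passed 0.05 for ATCG00430 without col-0 replicate 2 (0.056) or csld5 replicate 3 (0.057), for ATCG00660 without csld5 replicate 2 (0.058), for ATCG00750 without csld5 replicate 3 (0.05), and for ATCG01310 without col-0 replicate 2 (0.065), csld5 replicate 2 (0.067) or csld5 replicate 3 (0.064).

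The long rows ranged from a near loss to no detectable change. ATCG01130, with an implied length of 5447 bases and ycf1 at 5361 bases as the nearest RefSeq gene by length, had 155, 196 and 123 reads in col-0, 2, 4 and 4 in csld5, and 144, 114 and 198 in complemented libraries. It was nearly lost from csld5 alone, with a fold change of -5.34 ± 0.32 (log2, SE; edgeR adjusted p = 1.4e-07). On the log2(TPM + 1) scale, which understates changes of low genes, ATCG01130 changed by -1.12 from a col-0 level of 1.25 ± 0.18 TPM (SD, n = 3).

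ATCG00170, with an implied length of 4144 bases nearest rpoC2 at 4131, showed no such fall. It had 75, 103 and 49 reads in col-0, 56, 80 and 70 in csld5, and 75, 99 and 110 in complemented libraries, so all groups overlapped. The difference between csld5 and col-0 was 0.05 ± 0.25 (log2, SE; edgeR adjusted p = 0.9), and its sign turned under other settings. As a share of chloroplast reads, ATCG00170 took 1.81% to 2.78% in csld5, beside 0.656% to 0.885% in col-0 and 0.647% to 1.07% in complemented libraries.

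ATCG00190, with an implied length of 3208 bases nearest rpoB at 3219, fell by less than most rows. It had 721, 1031 and 598 reads in col-0, 365, 344 and 444 in csld5, and 752, 803 and 871 in complemented libraries. Its fold change in csld5 was -0.84 ± 0.14 (log2, SE; edgeR adjusted p = 0.0003). ATCG00190 made up 6.34% to 8.86% of chloroplast reads in col-0 and 11.8% to 15.7% in csld5.

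ATCG00950 and ATCG01180, with implied lengths of 2893 and 2925 bases, were both nearest to the 23S ribosomal RNA in length. ATCG00950 had 1087, 1099 and 628 reads in col-0, 136, 100 and 84 in csld5, and 1034, 779 and 1690 in complemented libraries. ATCG01180 had 687, 807 and 438 reads in col-0, 150, 110 and 129 in csld5, and 754, 560 and 1116 in complemented libraries. Both were lowest in csld5, and their order turned there, with ATCG01180 above ATCG00950 in every csld5 library and below it in the other 6, counted in reads. The fold changes in csld5 were -2.94 ± 0.24 for ATCG00950 and -2.12 ± 0.20 for ATCG01180 (log2, SE; edgeR adjusted p of 2e-06 and 5.8e-06). The difference between these fold changes was not tested. How the counting split reads between identical copies is not given, so the turned order is not read as a difference between copies. The remaining long rows, ATCG00860 and ATCG01280, had 14 and 24 reads over all 9 libraries and were not tested. Both were nearest ycf2 at 6885 bases, with implied lengths of 6792 and 8460 bases, the latter 22.9% longer than ycf2. These rows have fewer than the 100 reads required in the check of implied length, so their lengths are unchecked.

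**Figure D3:**
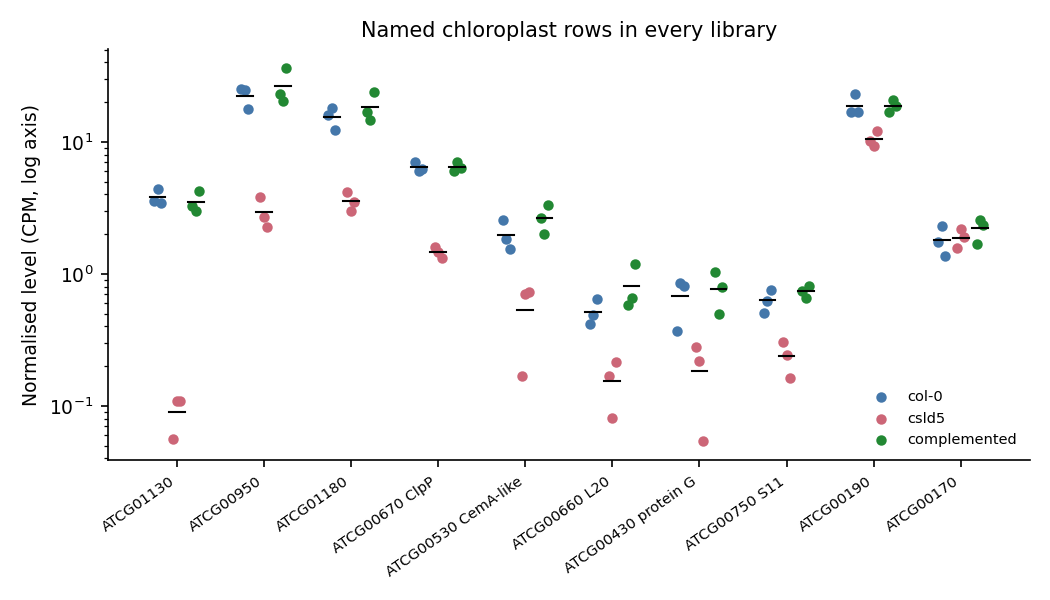
Normalised level in CPM (log axis) of 10 chloroplast rows in every library, with a black line at each group's mean. ATCG01130 drops from 123 to 196 reads per col-0 library to 2 to 4 per csld5 library, while the 3 groups overlap for ATCG00170.

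Of the rows with neither a note nor a length match, ATCG00390 was the one tested row without a read in csld5. It had 17, 9 and 12 reads in col-0, none in csld5, and 21, 10 and 9 in complemented libraries. Against a floor of 3 counts over the csld5 group, ATCG00390 was at least 11.9-fold higher in col-0. ATCG00220 had 270, 181 and 148 reads in col-0, 3, 2 and 1 in csld5, and 239, 150 and 252 in complemented libraries. Its fall was the lowest fitted value among rows with a read in csld5, at -6.38 ± 0.38 in csld5 (log2, SE; edgeR adjusted p = 1.2e-07).

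The 14 tested rows that were not called in csld5 against col-0 had fold changes from -1.45 to 0.32 and 7.56 to 347 mean reads, and 6 of them had 50 reads or more. The one row whose csld5 libraries all lay above those of col-0, ATCG00280, was among them. The 29 rows that were not tested together had 81 to 194 reads per col-0 library, 19 to 43 per csld5 library and 130 to 165 per complemented library. Of these 29, 8 had no read in any csld5 library and 0 had none in any complemented library. Only genes with a read in col-0 replicate 1 are listed, so a row without a col-0 read could not occur. The share over all genes is not given beside this count, which is not read as a trait of csld5.

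The shares of single rows within the chloroplast reads were also compared. The share of chloroplast reads was lower in all 3 csld5 libraries than in all col-0 libraries for 23 of 82 rows and higher for 12, ATCG00190 and ATCG00170 among the latter and ATCG00220, ATCG01130, ATCG00950 and ATCG01020 among the former. No share of chloroplast reads exists for other genes. On CPM, a different measure, 25.8% of all genes tested lay wholly lower in csld5 than in col-0 and 25.2% wholly higher. A fall in one share raises the others by construction, so these counts describe unequal change only.

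The second comparison asks what differs when the mutant carries the transgene. Both comparisons use the same csld5 libraries, so opposite changes in them are not independent. In complemented against csld5 libraries, 69 of 82 chloroplast rows were higher and 0 lower by edgeR, beside 19.8% and 21.1% of all genes tested, and 0 were lower at an unadjusted p below 0.05 or by DESeq2 or limma. The median log2 fold change was 2.18 (quartiles 1.51 and 2.94), beside 0.02 over all genes. Groups stood wholly apart upward for 73 rows, against 25.9% of all genes. Only 30 of the 82 rows reached the filter's cutoff of 0.26 CPM in all 3 csld5 libraries. The others passed with libraries of the higher genotypes, so these counts and the median are not independent of the direction of change. The second comparison was not repeated on those 30 rows.

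The rises of the named rows lay close in size to their falls. ATCG00670 (ClpP) was higher by 2.15 ± 0.15 (log2, SE; edgeR adjusted p = 1.6e-06), ATCG00530 (CemA-like) by 2.31 ± 0.39 and ATCG00430 by 2.08 ± 0.54. The ribosomal protein rows were higher by 2.36 ± 0.48 for ATCG00660, 1.63 ± 0.38 for ATCG00750 and 2.97 ± 0.73 for ATCG01310. ATCG01130 was higher by 5.22 ± 0.32, ATCG00220 by 6.41 ± 0.38, ATCG00950 by 3.19 ± 0.24 and ATCG01180 by 2.39 ± 0.20. ATCG00190 was higher by 0.84 ± 0.14 and ATCG00170 differed by 0.24 ± 0.25 (edgeR adjusted p = 0.48).

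The third comparison sets the transgenic line beside the wild type and does not use the csld5 libraries for its means. Of 82 rows, 1 was higher in complemented libraries than in col-0 and 0 were lower by edgeR, beside 0.948% and 0.578% of all genes; 3 and 1 passed an unadjusted p of 0.05, DESeq2 also called 1 higher and 0 lower, and limma called 0 in either direction. The median was 0.25, with 58 values above 0 and 24 below. Groups lay wholly apart upward for 12 rows and downward for 4, beside 9.37% and 10.2% of all genes.

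The row that passed was ATCG01020. It had 832, 742 and 622 reads in col-0, 80, 69 and 60 in csld5, and 1087, 876 and 1078 in complemented libraries. Its level was 194 ± 13.1 TPM in col-0, 22.4 ± 3.02 in csld5 and 261 ± 10.5 in complemented libraries (SD, n = 3), and no 2 groups overlapped. It fell by 3.22 ± 0.12 on the log2 scale in csld5 (edgeR adjusted p = 1.4e-09), and was higher in complemented libraries than in col-0 by 0.40 ± 0.09 (edgeR adjusted p = 0.049). That last call was lost without any 1 of the 6 libraries of these genotypes (adjusted p from 0.082 to 0.25), without csld5 replicate 2 (0.06) and with limma on TPM.

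Nuclear genes for the same complexes differed in both directions, by less than 1 on the log2 scale with edgeR on all 9 libraries. Of 31 nuclear subunits of the photosystems, cytochrome b6f, ATP synthase, NDH and RuBisCO, 6 were higher and 11 lower in csld5 than in col-0, with a median of -0.02 and a range of -0.92 to 0.52 (log2). Over all genes tested, 21.1% were higher and 20.4% lower, against which the counts of nuclear genes are to be read. Photosystem I held 8 of the lower genes out of 11 tested, with a median of -0.36, among them PSAG at -0.92 ± 0.11 and PSAH2 at -0.49 ± 0.07 (SE; edgeR adjusted p of 3.2e-05 and 0.0002). In photosystem II, 3 of 8 rose and 3 fell; PSBO1 and PSBO2, subunits of the oxygen-evolving complex, rose by 0.49 ± 0.05 and 0.52 ± 0.06 (edgeR adjusted p of 2.2e-05 and 1.7e-05). PETC, the Rieske protein of cytochrome b6f, and ATPG, an ATP synthase subunit, were higher by 0.20 ± 0.07 and 0.20 ± 0.06 (edgeR adjusted p of 0.03 and 0.01), and both calls were lost with library totals as the scaling and without col-0 replicate 2. Of 31 nuclear proteins of the plastid ribosome, 5 were higher and 14 lower with a median of -0.12; PRPL31 changed by -0.53 ± 0.08 and PRPL24 by -0.39 ± 0.06.

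**Figure D4:**
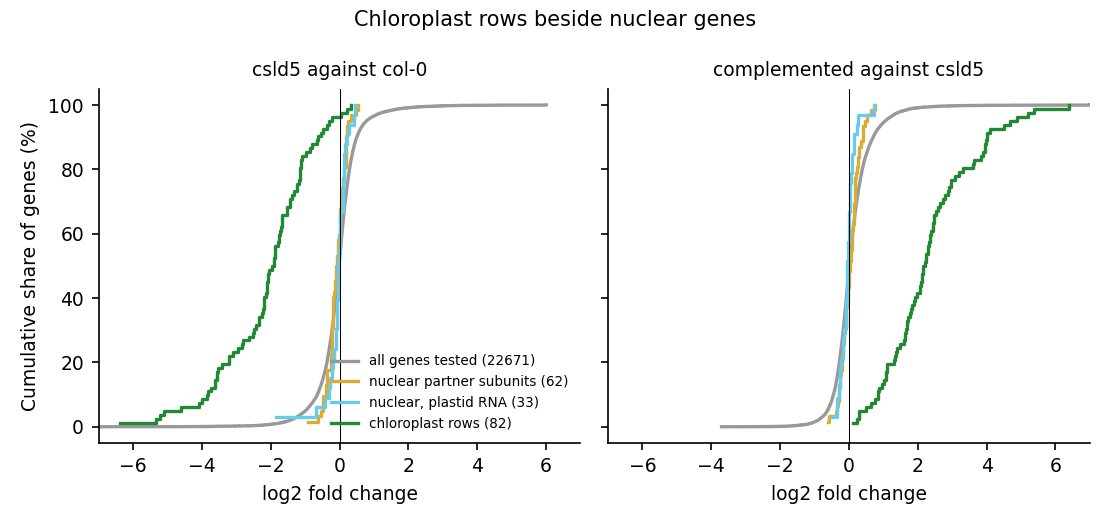
Cumulative share of genes (%) against log2 fold change for all genes tested, nuclear partner subunits including plastid ribosomal proteins, nuclear genes of plastid transcription and RNA maturation, and the 82 chloroplast rows, with values beyond 7 drawn at 7 and ATCG00390, without a csld5 read, drawn at its bound. The chloroplast curve is displaced to a median of -1.93 in the first comparison (left) and 2.18 in complemented against csld5 (right), while the nuclear curves stay near 0.

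Nuclear genes that transcribe and mature plastid RNA were called near the rates over all genes, 5 of 33 higher and 7 lower in csld5 (all genes 21.1% and 20.4%), with a median of -0.04. The largest change among them was in SIG1, a sigma factor of the plastid-encoded polymerase. SIG1 had 95.3 ± 3.32 TPM in col-0, 26.5 ± 0.693 in csld5 and 29.4 ± 0.547 in complemented libraries (SD, n = 3). It was lower than in col-0 by -1.85 ± 0.05 in csld5 and by -1.70 ± 0.05 in complemented libraries (log2, SE; edgeR adjusted p of 1.8e-10 and 3.8e-10), and higher in complemented than in csld5 libraries by 0.16 ± 0.05 (edgeR adjusted p = 0.035). Whether SIG1 has a part in the chloroplast values was not tested. Another sigma factor gene, SIG5, was higher in csld5 by 0.41 ± 0.13 (edgeR adjusted p = 0.019), a call lost without col-0 replicate 1 (0.063), col-0 replicate 3 (0.065) or csld5 replicate 1 (0.06). Of 12 polymerase-associated proteins, 6 fell and 1 rose, with PAP12 at -0.69 ± 0.10 and PAP10 at -0.42 ± 0.06. Of 13 genes of plastid RNA processing and decay, 3 rose, among them the RNA-binding proteins CSP41A at 0.43 ± 0.06 and CP31A at 0.23 ± 0.05.

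Markers of other cell types that such a dissection can hold did not share one direction. Mesophyll markers, nuclear genes of mature photosynthetic cells, were higher in csld5 for 5 of 7, with a summed level between 16200 and 17900 TPM in csld5, 13900 and 14100 TPM in col-0, and 12100 and 13200 TPM in complemented libraries. Of 6 tapetum markers 3 were lower, with sums between 293 and 485 TPM in csld5, 451 and 612 TPM in col-0, and 565 and 746 TPM in complemented libraries. Of 6 meristem markers tested, 3 were higher and 2 lower, and 1 of 4 epidermis and 1 of 4 vascular markers were higher, where 21.1% of all genes were higher and 20.4% lower. The mesophyll sum thus moved against the chloroplast share and the tapetum sum with it; their part in the result was not tested.

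Among nuclear genes, fold change moved with base composition; the chloroplast rows could not be paired with reference genes, so their own GC content is not used here. The plastid genome has a GC content of 36.3%, and its 129 RefSeq genes have a median of 40.7% (quartiles 36.2% and 48.6%). Nuclear genes of 36 to 38% GC had a median log2 fold change of -0.31 in csld5 against col-0, with 41.5% of 1848 called lower, and those under 1000 bases had -0.50, with 44.7% of 582. Nuclear genes of 40 to 44% GC had a median of 0.04, with 13.4% of 12704 called lower, and those under 1000 bases had -0.25, with 33.5% of 1405. At 44% GC or more the median was 0.24, with 5.32% of 2408 called lower, and under 1000 bases it was -0.11, with 14.2% of 423. Nuclear genes under 34% GC had a median of -0.77, with 54.2% of 421 called lower, and those under 1000 bases had -0.84, with 51.9% of 289. The chloroplast median was -1.93. The part of base composition in the chloroplast values was not tested.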

How the data were processed

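Per the submitters' processing notes, reads were processed with HISAT2 2.2.1, Trimmomatic 0.39 and featureCounts 2.0.6 on TAIR10; the sources used here do not give settings, annotation release, strand setting or the tool behind TPM. The authors deposited raw read counts and TPM values per gene. Genes without a read in col-0 replicate 1 are not listed (0 there, 932 to 1540 in the others), so chloroplast genes of that kind are not analysed here. Rows with few reads are thereby tilted towards higher values in col-0. Of 999 chloroplast TPM cells, 93 were missing and set to 0. Of these cells, 16 had a count above 0, so TPM and counts do not match in every library.

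Counts were fitted for all genes with edgeR 4.0.16 (R 4.3.3; filterByExpr, TMM, quasi-likelihood F test, 9 libraries in 1 fit, genotype only, Benjamini-Hochberg over 22671 genes, threshold 0.05), tested on simulated data first. The simulated counts left out genes low in col-0, so they say nothing of the rows with few reads. DESeq2 1.42.0 and limma 3.58.1 on log2(TPM + 1) or log2(TPM + 0.1) were alternatives and were not run on simulated data. Members and lists were chosen with earlier results of these data known. The naming rule by gene class could not be applied, since IDs and symbols could not be paired; named rows are those with a reference note, the 5 best-covered rows over 2500 bases, the 2 rows with the lowest fitted values in csld5 and the row called in complemented against col-0, and ATCG00280 and ATCG00450, chosen after their values were seen. From each nuclear list, called genes with the smallest p were named.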

Additional observations from a re-analysis of the deposited data

How the results depend on the processing

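Of 192 alternative values for the counts, medians and shares, 168 stayed within the limits set and 24 moved; of 970 values for single genes, 938 kept direction and call, 29 lost the call and 3 turned sign. In csld5 against col-0, lower rows numbered 38 of 43 with a filter of 1 CPM in 3 libraries and 26 of 32 among rows with 50 reads or more on average (chosen after seeing the data), where fewer rows are tested; in complemented against csld5, higher rows numbered 38 and 27. The medians were -1.28 and 1.5 with limma on log2(TPM + 1), -1.12 and 1.19 without its filter, where the pseudocount shrinks low rows, and -1.71 and 1.87 among rows with 50 reads or more. Leaving out 1 library at a time gave 58 to 68 lower rows with medians of -2.15 to -1.84 in csld5 against col-0, 67 to 72 higher rows in complemented against csld5, and 0 to 1 higher rows in complemented against col-0, where the 3 limma settings gave 0. Counted on TPM, the chloroplast share was 0.122%, 0.030% and 0.146% in col-0, csld5 and complemented libraries, where rows of short implied length weigh more. ATCG00170 in csld5 against col-0 turned to -0.03 with library totals, and ranged from -0.10 to 0.26 when 1 library was left out, below 0 without col-0 replicate 3 or csld5 replicate 2. Library totals moved the median of all genes to -0.10 for csld5 beside col-0, and to 0.11 for complemented beside csld5. Small rises of PETC, ATPG and SIG5 lost their call with library totals. Replicate numbers did not pair the libraries (correlations of same-numbered libraries from -0.11 to 0.20), and a replicate block gave 67 lower, 71 higher and 1 higher rows in the 3 comparisons. Leaving out genes present as 2 copies was not run, as the rows could not be paired with symbols. Depth limits single rows: a csld5 library held at most 3090 chloroplast reads.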
